A study of Mus musculus with 12 samples.

Results

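The change that IL-1b brought to mouse colonoids was followed across cultures with and without IL-22. All 12 libraries of the study entered 1 additive model with a term for IL-22 and a term for IL-1b, so that 6 libraries with IL-1b were set against 6 without it. All 13987 genes that passed the filter on low counts, of 35869 gene symbols in the deposited table, are members of the comparison. Colonoids are gut organoids: colonic crypts, here of C57BL/6 mice, are isolated and kept in Matrigel, where their epithelium grows on in medium with EGF and L-WRN conditioned medium. The 4 groups of 3 libraries were cultures left unstimulated, cultures with recombinant mouse IL-1b at 100 ng/mL, cultures with recombinant mouse IL-22 at 1 ng/mL, and cultures with both cytokines, each stimulated for 12 h. All carried the same genotype as far as the labels go, and the only differences named between groups are the 2 cytokines. Polyadenylated RNA was sequenced. The labels do not say if replicates are different mice or different wells, so the p-values speak only for the spread among these libraries, part or all of which may be technical.

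IL-1b is an inflammatory cytokine that binds the IL-1 receptor on epithelial and immune cells. The receptor recruits the adaptor MyD88 and IRAK kinases, which release the transcription factor NF-kB to switch on chemokine, cytokine and feedback genes. IL-22 comes from lymphoid cells and acts on epithelium through STAT3, and both cytokines are known for inducing antimicrobial defence in the gut.

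Few genes were called for the IL-1b term by edgeR, and most of those called rose. A gene is called here if the quasi-likelihood test of edgeR gave it an adjusted p (Benjamini-Hochberg, all genes tested) under 0.05, and only called genes are said to rise or fall. Of 13987 genes 79 were called (0.565%), and DESeq2 called 125 (0.894%). The DESeq2 calls were more even in direction, with 67 higher and 58 lower. Of the 79, 53 rose (0.379%) and 26 fell (0.186%). The risen genes had a median log2 fold change of 0.78 and 22 of them rose by at least 2-fold, whereas the fallen genes had a median of -0.45 and 3 of them fell by at least 2-fold. Over all genes tested the median was -0.0034, and 48.8% of genes lay above 0. At an unadjusted p under 0.05 there were 2122 genes (15.2%), so genes that were not called may also have changed. In the same model the IL-22 term called 5629 genes (40.2%), with 2829 higher (20.2%) and 2800 lower (20%).

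Library totals lay between 4703902 and 5804033 counts. The first principal component, with 49.1% of the variance, set all 6 libraries that received IL-22 apart from the 6 that did not. The 9 markers of colon epithelium, among them Epcam, Krt8 and Cdx2, summed to between 2720 and 3410 CPM (the count as a rate of the library total, with totals scaled by TMM) in the 12 libraries. The 15 defining markers of fibroblasts, muscle, endothelium and nerve summed to at most 12.9 CPM. The full list of 15 fibroblast and muscle genes summed to 96.7 CPM in IL-1b replicate 1 and to 36.3 to 77 CPM in the other 11 libraries. In that library Vim, an intermediate filament gene of mesenchymal cells and leukocytes, had 170 counts against 33 to 71 elsewhere, and Thy1, a surface protein gene of fibroblasts and T cells, had 57 against at most 9. The full lists of 11 endothelial and 10 neural and glial genes summed to 9.01 to 23 and 14 to 24.8 CPM. IL-1b replicate 1 also stood apart in leukocyte genes: 9 markers summed to 89.3 CPM there, against 23.1 and 15.8 CPM in the other libraries with IL-1b alone and 3.58 to 15.4 CPM in the remaining 9 libraries. Ptprc, the pan-leukocyte phosphatase CD45, had 104, 20 and 12 counts with IL-1b alone and at most 9 elsewhere. None of 9 tested leukocyte genes was called (against 0.565% of all genes), 8 of them had positive values and their median was 0.39. The values were 2.75 ± 0.86 for Ptprc (adjusted p = 0.173) and 2.70 ± 0.70 for the lysosomal membrane gene Laptm5 (adjusted p = 0.116). The full list of 35 leukocyte genes, which includes Ly6g at 612 to 771 counts per library, summed to 342 CPM in IL-1b replicate 1 and to 189 to 322 CPM in the others. The part of these cells in the results below was not tested. In bulk RNA, fewer cells of a type and less RNA per cell cannot be told apart.

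Without IL-1b replicate 1, 38 genes were called (0.268% of 14155 tested), 29 higher (0.205%) and 9 lower (0.0636%). Of the 79 genes called with all libraries, 37 remained and all 79 kept their direction. The 79 were picked by a fit that holds every library of this refit. That favours an equal direction, which is therefore not separate evidence. Each of the 12 libraries was left out in turn, and 35 to 95 genes were called. A core of 25 genes was called whichever library was left out, 19 of them higher and 6 lower. The higher ones were Lcn2, S100a9, Mmp7, Csf1, Ccl20, Clca3a1, Prl2a1, Nos2, C3, Gm39584, Cd177, Clca3b, Tnfsf10, Nox1, Duox2, Zc3h12a, Noxa1, Rilpl2 and Cyba. The lower ones were C2cd4a, Acpp, Gatm, Gsdmc2, Mlxipl and Cyp2d13. Calls were most often lost without unstimulated replicate 2, which left 35, and without both cytokines replicate 3, which left 36. The count was 40 without IL-22 replicate 2 or IL-1b replicate 3 and 49 without IL-22 replicate 3 or both cytokines replicate 1.

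**Figure D1:**
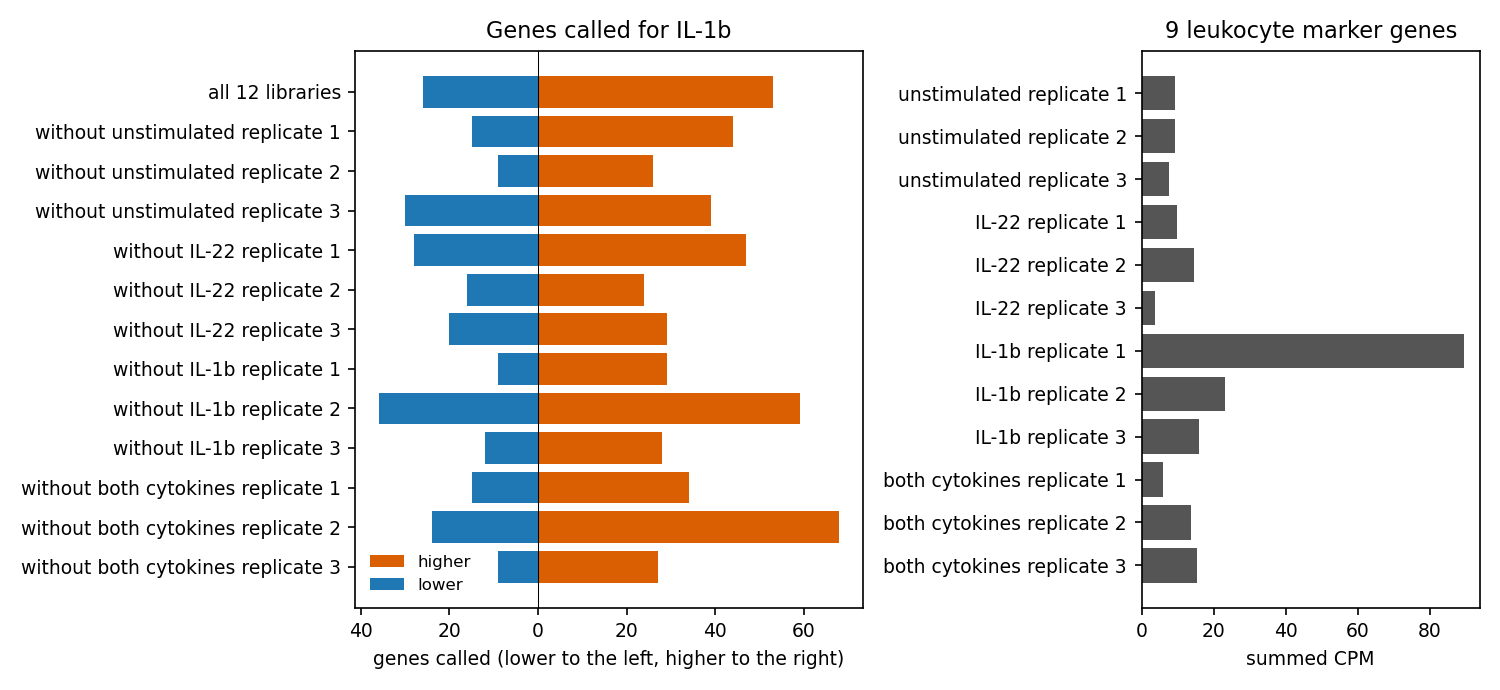
Left, number of genes called for the IL-1b term with all 12 libraries and with each library left out, lower genes to the left of 0 and higher genes to the right. Right, summed CPM of 9 leukocyte marker genes in each library. The count lies between 35 and 95 when 1 library is left out, and IL-1b replicate 1 holds 89.3 CPM of leukocyte markers.

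Lcn2 had the largest change of the core. It encodes lipocalin 2, which binds bacterial siderophores and so withholds iron (mm10 chromosome 2, 32384633 to 32388252). Its level was 0, 0 and 0.379 CPM in the unstimulated libraries and 2.94, 4.14 and 5.49 CPM with IL-1b alone. On top of IL-22 it went from 1.45, 0.886 and 0.943 CPM to 47.2, 31.4 and 44.6 CPM. The groups did not overlap in either stratum, and the libraries with both cytokines stood highest. The IL-1b term was 5.16 ± 0.28 (log2 fold change ± SE, adjusted p = 1.77e-07), and 5.18 ± 0.27 without IL-1b replicate 1. Summed over 3 libraries, 71 counts with IL-1b stood against 2 in unstimulated cultures, a ratio of 34.7 (95% counting interval 9.25 to 292), which covers counting error only.

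S100a9, a subunit of the antimicrobial zinc-binding protein calprotectin (chromosome 3, 90692632 to 90695721), was near the floor except with both cytokines. It had 0.178, 0 and 0 CPM in unstimulated libraries, 0.184, 1.69 and 0.499 CPM with IL-1b, 0.413, 0.443 and 0 CPM with IL-22 and 8.88, 7.45 and 16.7 CPM with both. The IL-1b term was 4.89 ± 0.57 (adjusted p = 0.0015). Without IL-22 the summed counts were 13 against 1, a ratio of 12.7 (1.91 to 540), and that stratum alone was not called (adjusted p = 0.476). Of the list of antimicrobial and acute-phase genes 25 were tested, and 3 of these rose while none fell (12%, against 0.565% of all genes), with a median of 0.02. The third was Ang4, a bactericidal ribonuclease of secretory cells, at 0.42 ± 0.08 (adjusted p = 0.0308). Its call held only without IL-22 replicate 1 or 2, IL-1b replicate 2 or both cytokines replicate 2, and without IL-1b replicate 1 the adjusted p was 0.088. Lbp, the lipopolysaccharide-binding protein gene, was not called for the IL-1b term (0.82 ± 0.25, adjusted p = 0.166), although it rose without IL-22. Saa3, an acute-phase gene chosen after its values were seen, stood at 0.85 ± 0.21 (adjusted p = 0.106).

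C3, the central component of complement (chromosome 17, 57203970 to 57228136), had 42.8, 26.6 and 26 CPM in the unstimulated libraries and 67.3, 111 and 106 CPM with IL-1b. With IL-22 it had 68.5, 92.2 and 76.6 CPM, and 193, 189 and 182 CPM with both cytokines. Every library with IL-1b lay above every library without it inside each stratum. The term was 1.39 ± 0.13 (adjusted p = 0.000149), and C3 was the 1 called gene of 8 tested complement genes (12.5%, against 0.565% of all genes), whose median was 0.0014. Mir6978, a microRNA gene that lies inside C3 on the same strand, also rose (1.69 ± 0.33, adjusted p = 0.0313). Its counts are uncertain, since reads of the host gene can cover it, and its call held only without IL-22 replicate 1, IL-1b replicate 2 or both cytokines replicate 3 and was lost with DESeq2.

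Of the lists with 5 or more tested genes, that of the oxidases had the largest share called. Of 14 tested genes of NADPH oxidases and nitric oxide synthase 6 rose and none fell (42.9%, against 0.565% of all genes), with a median of 0.42, and the same 6 rose without IL-1b replicate 1. Nos2, the inducible nitric oxide synthase (chromosome 11, 78920787 to 78960254), had 41.9, 22.2 and 25.8 CPM in unstimulated libraries and 108, 121 and 131 CPM with IL-1b. In cultures with IL-22 it went from 83.2, 106 and 146 CPM to 208, 249.5 and 247 CPM. The range with IL-1b alone overlapped that with IL-22 alone, and the libraries with both lay above all others. Its term was 1.45 ± 0.18 (adjusted p = 0.00211).

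Duox2, the dual oxidase that releases hydrogen peroxide at the epithelial surface (chromosome 2, 122279247 to 122298449), lies 450 bases from Duoxa2, which encodes its maturation factor. Duox2 had 124, 79.8 and 105 CPM in unstimulated libraries and 185, 217 and 207 CPM with IL-1b, then 344, 407 and 339.8 CPM with IL-22 and 454, 574 and 546 CPM with both. The 4 groups did not overlap and rose in that order. The terms were 0.73 ± 0.10 for Duox2 (adjusted p = 0.0051) and 0.78 ± 0.14 for Duoxa2 (adjusted p = 0.0198). The Duoxa2 call was lost without IL-22 replicate 3 (adjusted p = 0.0533), and Duoxa2 shares 682 exon bases with Duoxa1.

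Of the NOX1 complex 3 genes rose. Nox1 encodes the catalytic subunit of the superoxide-producing oxidase of colon epithelium, and it went from 72.5 ± 5.16 to 132 ± 9.28 CPM without IL-22 and from 56.8 ± 17.6 to 91.3 ± 20.3 CPM with it (SD, n = 3). The term was 0.78 ± 0.12 (adjusted p = 0.0109), with overlap in the stratum with IL-22. Noxa1, its activator, rose by 0.48 ± 0.07 (adjusted p = 0.00724). Cyba, the p22phox subunit that NOX enzymes share, had 50.6, 47.1 and 45.1 CPM in unstimulated libraries and 62.9, 61.5 and 59 CPM with IL-1b, 49.97, 49 and 46.8 CPM with IL-22 and 58.7, 61.5 and 64.6 CPM with both. Its change was small but stood clear of the replicate spread, at 0.35 ± 0.05 (adjusted p = 0.00331). Noxo1, the organiser of the complex and a gene chosen after its values were seen, had 0.08 ± 0.04 (adjusted p = 0.327). Nox1 shares 399 exon bases with Cstf2 and Noxa1 shares 50 with Entpd8, and the counting strand is not given in the sources used here.

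**Figure D2:**
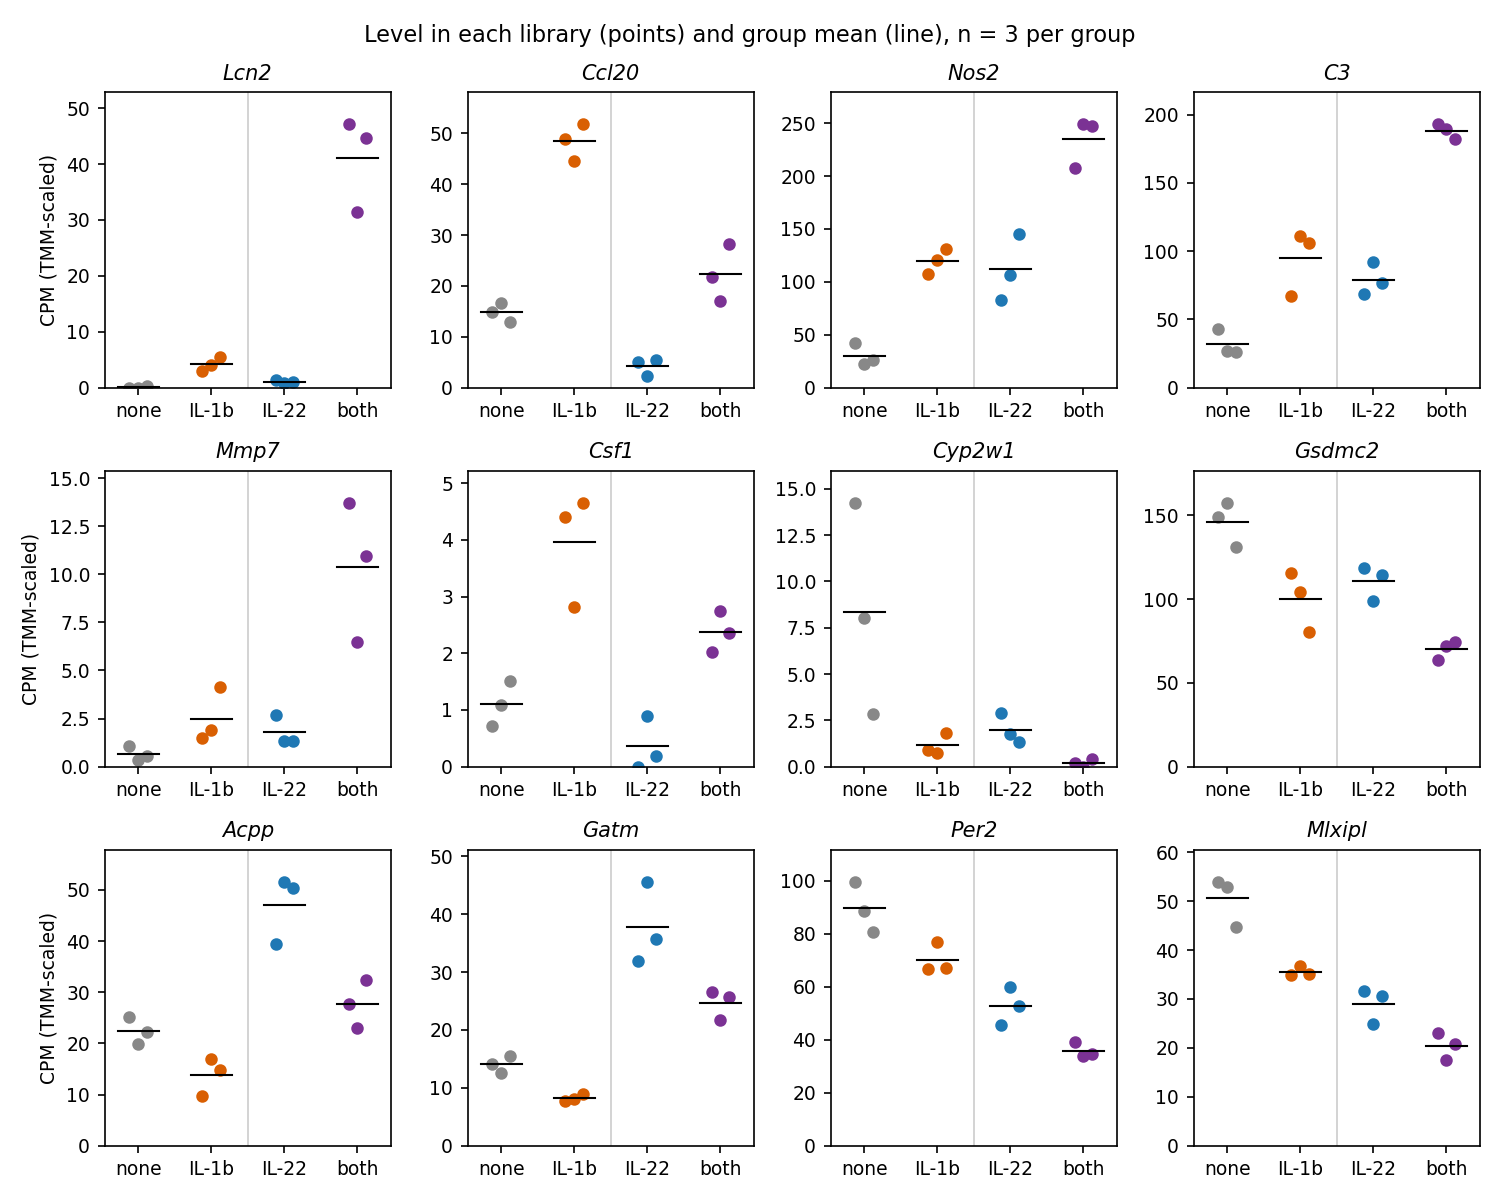
CPM in each library (points) with the group mean (line) for 12 genes called for the IL-1b term, in unstimulated cultures (none) and with IL-1b, IL-22 or both, 3 libraries per group. On each side of a panel's grey line the libraries with IL-1b are higher for Lcn2, Ccl20, Nos2, C3, Mmp7 and Csf1 and lower for Cyp2w1, Gsdmc2, Acpp, Gatm, Per2 and Mlxipl.

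Chemokines and growth factors for immune cells also rose. Ccl20, which draws lymphocytes and dendritic cells through the receptor CCR6 (chromosome 1, 83116766 to 83119167), had 15, 16.6 and 12.9 CPM in unstimulated libraries and 48.9, 44.6 and 51.9 CPM with IL-1b. It had 4.96, 2.21 and 5.47 CPM with IL-22 and 21.8, 17.1 and 28.3 CPM with both. The lowest group was IL-22 alone and the highest IL-1b alone, and no groups compared within a stratum overlapped. The IL-1b term was 1.94 ± 0.17 (adjusted p = 4.86e-05), and the IL-22 term of the same model was -1.33 ± 0.16 (adjusted p = 1.68e-05).

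Csf1, the macrophage colony-stimulating factor, had 0.713, 1.09 and 1.52 CPM in unstimulated libraries, 4.41, 2.82 and 4.66 CPM with IL-1b, 0, 0.886 and 0.189 CPM with IL-22 and 2.02, 2.74 and 2.36 CPM with both. All 6 libraries with IL-1b lay above all 6 without. The IL-1b term was 2.11 ± 0.35 (adjusted p = 0.0132) and the IL-22 term -0.93 ± 0.33 (adjusted p = 0.0357). Tnfsf10, the death ligand TRAIL, rose by 0.87 ± 0.14 (adjusted p = 0.0115). Tnf, the inflammatory cytokine itself, rose by 0.60 ± 0.12 (adjusted p = 0.035). The Tnf call held only without IL-22 replicate 1 or both cytokines replicate 1 or 2, and without IL-1b replicate 1 the adjusted p was 0.0873. Of 18 tested genes in this list 4 rose and none fell (22.2%, against 0.565% of all genes), with a median of 0.20.

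Of 4 tested neutrophil-attracting chemokines 2 rose (50%, against 0.565% of all genes), and all 4 had positive values with a median of 1.05. Cxcl1 and Cxcl2 encode ligands of CXCR2 and lie 10755 bases apart. Cxcl1 (chromosome 5, 90891241 to 90893115) had 2.5, 2.91 and 4.17 CPM in unstimulated libraries, 8.82, 6.58 and 10.3 CPM with IL-1b, 13.6, 8.86 and 7.17 CPM with IL-22 and 18.6, 12.6 and 19.7 CPM with both. The groups were apart without IL-22 and overlapped with it, and the term was 1.04 ± 0.21 (adjusted p = 0.035). Cxcl2 had 2.00 ± 0.41 (adjusted p = 0.0396) and at most 8.58 CPM. The Cxcl2 call was lost in a fit with 1 mean per group, averaged over strata. These calls depended on single libraries: that of Cxcl1 held only without IL-22 replicate 1, IL-1b replicate 2 or both cytokines replicate 2, and that of Cxcl2 only without unstimulated replicate 3, IL-1b replicate 2 or 3 or both cytokines replicate 2. Without IL-1b replicate 1 the adjusted p was 0.0873 for Cxcl1 and 0.0717 for Cxcl2, so none of the 4 was then called. Cxcl5, another CXCR2 ligand, was not called (1.06 ± 0.24, adjusted p = 0.0631).

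The promoters of several of these genes hold the NF-kB consensus, the site through which IL-1 receptor signalling is known to act on chemokine genes. The consensus was searched by name on both strands in RefSeq windows of GRCm38.p6 that run from 250 bases before to 50 after each gene's start. It was found in 10 of 47 risen genes with a window (21.3%), in 1 of 18 fallen genes (5.56%) and in 630 of 10340 tested genes (6.09%). Of these 10, 5 are shown as the 120 bases before the start, 5′ to 3′ on the gene's strand, with the match in capitals: Cxcl1 at chr5:90891125-90891244 (+), Cxcl2 at chr5:90903779-90903898 (+), Ccl20 at chr1:83116646-83116765 (+), Casp4 at chr9:5308729-5308848 (+) and Nox1 at chrX:134111855-134111974 (-). They were picked because they cover the chemokine, caspase and oxidase genes described here.
Cxcl1: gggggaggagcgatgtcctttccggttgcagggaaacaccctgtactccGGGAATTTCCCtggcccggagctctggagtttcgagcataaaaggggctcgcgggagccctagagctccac
Cxcl2: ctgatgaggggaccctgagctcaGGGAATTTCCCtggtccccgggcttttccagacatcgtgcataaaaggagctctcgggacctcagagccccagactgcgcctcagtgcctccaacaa
Ccl20: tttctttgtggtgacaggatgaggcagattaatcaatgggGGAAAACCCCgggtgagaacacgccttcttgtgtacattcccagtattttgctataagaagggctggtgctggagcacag
Casp4: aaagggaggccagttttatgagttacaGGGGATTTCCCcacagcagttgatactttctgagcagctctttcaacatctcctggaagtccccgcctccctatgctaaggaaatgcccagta
Nox1: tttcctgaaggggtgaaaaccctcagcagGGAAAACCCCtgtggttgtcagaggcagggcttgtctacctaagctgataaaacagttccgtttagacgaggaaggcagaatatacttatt
Cxcl1 and Cxcl2 carry the same 11 letters, as do Ccl20 and Nox1 with theirs of 10. The other risen genes with a match were Clca3a2, Csf1, Noxa1, Rasgef1a and Tmem176b. A C/EBP motif was found in 21.3% of risen genes, among them Lcn2, S100a9, C3 and Mmp7, in 11.1% of fallen genes and in 10.2% of genes tested. The E-box CACGTG was found in 4.26%, 11.1% and 11.5%. A match describes the letters and does not show binding, and no match says nothing of the factor.

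Of 29 tested genes of NF-kB and its feedback 4 rose and none fell (13.8%, against 0.565% of all genes, median 0.06). Zc3h12a, which encodes the endoribonuclease Regnase-1 that degrades inflammatory transcripts (chromosome 4, 125118423 to 125127840), had 71.6, 63.6 and 53.7 CPM in unstimulated libraries and 86.6, 104 and 90.6 CPM with IL-1b. With IL-22 it had 69, 80.2 and 77.9 CPM, and 97.5, 111 and 107 CPM with both. The groups did not overlap within a stratum, and the term was 0.52 ± 0.07 (adjusted p = 0.00331). Tnfaip2, a gene named for its induction by TNF, rose by 1.71 ± 0.30 (adjusted p = 0.0198) and shares 314 exon bases with another gene model. Nod2, the sensor of bacterial muramyl dipeptide, rose by 1.30 ± 0.26 (adjusted p = 0.035). Tnf was the fourth.

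Without IL-1b replicate 1 only Zc3h12a of the 4 was called. The Tnfaip2 call was also lost without unstimulated replicate 2 or IL-22 replicate 2, and that of Nod2 held only without unstimulated replicate 1 or both cytokines replicate 2 (adjusted p up to 0.0845 otherwise). The classical inhibitors were not called: Nfkbia, the IkB-alpha gene, had 0.14 ± 0.06 (adjusted p = 0.276) and Tnfaip3, the A20 gene, 0.13 ± 0.03 (adjusted p = 0.124). Birc3, a ubiquitin ligase gene, had 0.23 ± 0.06 (adjusted p = 0.144) and Nfkbiz, a nuclear IkB, 0.22 ± 0.06 (adjusted p = 0.125). The groups of Birc3 and Nfkbiz overlapped in neither stratum, while those of Nfkbia and Tnfaip3 overlapped with IL-22. No gene of 23 tested for the IL-1 receptor and its proximal signalling was called (against 0.565% of all genes), with a median of 0.0032. Il1r1, the signalling receptor, was at 13 ± 3.48 CPM in unstimulated cultures and 9.0 ± 0.631 CPM with IL-1b, with a term of -0.50 ± 0.22 (adjusted p = 0.313). Il1rap, its co-receptor, had 0.16 ± 0.11 and Il1rn, the receptor antagonist, 0.04 ± 0.05 (adjusted p = 0.522 and 0.782).

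Of 22 tested STAT3 targets and IL-22 receptor genes 1 rose (4.55%, against 0.565% of all genes), the transcription factor gene Cebpd (0.32 ± 0.06, adjusted p = 0.0312), and the median was -0.02. That call was lost without IL-22 replicate 2 or 3, IL-1b replicate 1 or 3, or both cytokines replicate 1 or 3, and Cebpd shares 562 exon bases with Spidr. Socs3, the feedback inhibitor of STAT3, had an IL-1b term of -0.04 ± 0.11 (adjusted p = 0.904) beside an IL-22 term of 4.11 ± 0.12. Fut2, which fucosylates epithelial glycans, had 0.01 ± 0.04 for IL-1b (adjusted p = 0.922) beside 1.03 ± 0.04 for IL-22. Of the proteases, Mmp7, the matrilysin that processes defensin precursors, had 1.07, 0.364 and 0.569 CPM in unstimulated libraries, 1.47, 1.88 and 4.16 CPM with IL-1b, 2.68, 1.33 and 1.32 CPM with IL-22 and 13.7, 6.47 and 10.9 CPM with both. Its libraries with both cytokines stood above all others, and the term was 2.33 ± 0.34 (adjusted p = 0.0051). Mmp28, the epilysin gene, rose by 0.41 ± 0.07 (adjusted p = 0.0198), a call lost without IL-1b replicate 3 or both cytokines replicate 1. These were 2 of 25 tested genes of wound repair and proteases (8%, against 0.565% of all genes), and both share exon bases with another gene model.

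Of the CLCA family, secreted or membrane-bound regulators of chloride channels, 3 neighbouring genes rose. Clca3a1, Clca3a2 and Clca3b lie next to each other on chromosome 3, between 144729677 and 144849357, and rose by 1.56 ± 0.21, 1.67 ± 0.29 and 0.91 ± 0.14 (adjusted p = 0.00302, 0.0198 and 0.00724). Clca3b had 148, 131 and 127 CPM in unstimulated libraries, 213, 241 and 200.1 CPM with IL-1b, 214, 130.0 and 105 CPM with IL-22 and 308, 309 and 359.8 CPM with both. The groups did not overlap within a stratum, although IL-22 replicate 1 lay at the level of IL-1b alone. Clca3a2 lost its call without IL-22 replicate 2 (adjusted p = 0.0644). Other members, chosen after their values were seen, had -0.05 ± 0.05 for the goblet cell gene Clca1 and -0.06 ± 0.07 for Clca4a. Clca4b, a fixed gene of the report, had 0.38 ± 0.12 (adjusted p = 0.689, 0.725 and 0.166 for the 3). These 3 lie on the same chromosome, between 144910921 and 145032776, so only part of the cluster was called. Reads of near-identical copies can be split between Clca3a1 and Clca3a2, which also share exon bases with other models, so each value is uncertain.

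Cd177, a GPI-anchored surface protein known from neutrophils (chromosome 7, 24743983 to 24760311), had 77.5, 63.3 and 70.4 CPM in unstimulated libraries, 123, 195 and 175 CPM with IL-1b, 69.2, 81.3 and 54.1 CPM with IL-22 and 112, 109.6 and 117 CPM with both. All libraries with IL-1b lay above all without in both strata, and the term was 0.99 ± 0.12 (adjusted p = 0.00235). Ceacam10, a gene of the carcinoembryonic antigen family that lies 16894 bases from Cd177, rose by 0.84 ± 0.16 (adjusted p = 0.0313). Its call held only without IL-22 replicate 2, IL-1b replicate 1 or both cytokines replicate 2. Clca3b and Ceacam10 were the 2 called of 38 tested colonocyte and transport genes (5.26%, against 0.565% of all genes). Among leukocyte markers Ly6g, which marks neutrophils but shares its family with several close copies, had 612 to 771 counts in every library.

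Other genes with large rises were expressed at low levels. Prl2a1, of the prolactin family, rose by 1.53 ± 0.23 (adjusted p = 0.00724), from 6.36 ± 1.14 to 21.8 ± 5.28 CPM with IL-22 (SD, n = 3). Without IL-22 it had 2.32, 1.64 and 3.41 CPM in unstimulated libraries and 7.17, 3.01 and 5.32 CPM with IL-1b, which overlapped (adjusted p = 0.41). Ankrd1, a nuclear ankyrin repeat protein gene, rose by 2.02 ± 0.38 (adjusted p = 0.0245). Its values were 11.4, 4.33 and 4.32 CPM with IL-1b and 3.63, 3.72 and 11.8 CPM with both, with IL-1b replicate 1 and both cytokines replicate 3 far above their groups. The call was lost without unstimulated replicate 1 or 2, any library of IL-22 alone or IL-1b replicate 1 (adjusted p up to 0.0685). Ccr4, a chemokine receptor gene, rose by 2.36 ± 0.42 (adjusted p = 0.0198), and lost its call without IL-22 replicate 2 or 3 or both cytokines replicate 3. Ly6f, of the Ly6 surface protein family, rose by 1.68 ± 0.30 (adjusted p = 0.0198), and lost its call without IL-22 replicate 2, IL-1b replicate 3 or both cytokines replicate 1 or 3.

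Of 36 tested genes of cell death and inflammasomes 1 rose and 2 fell (8.33%, against 0.565% of all genes, median 0.02). Casp4, which encodes mouse caspase-11, the sensor of cytosolic lipopolysaccharide, rose by 0.42 ± 0.08 (adjusted p = 0.0216). It went from 47.7 ± 4.93 to 67.8 ± 10.8 CPM without IL-22 and from 71 ± 3.17 to 90.2 ± 6.52 CPM with it (SD, n = 3), and its call held only without unstimulated replicate 1 or 3, IL-22 replicate 1, IL-1b replicate 2 or both cytokines replicate 2. The 2 that fell are gasdermin C genes, a family of pore-forming proteins, and lie 12546 bases apart on chromosome 15. Gsdmc2 had 149, 158 and 131 CPM in unstimulated libraries, 116, 104 and 80.5 CPM with IL-1b, 119, 99 and 114 CPM with IL-22 and 63.8, 71.7 and 74.2 CPM with both. Its libraries with both cytokines lay below all others, and the term was -0.60 ± 0.08 (adjusted p = 0.00335). Gsdmc3 fell by 0.44 ± 0.08 on the log2 scale (adjusted p = 0.0236), a call lost without unstimulated replicate 2, IL-22 replicate 3, IL-1b replicate 3 or both cytokines replicate 1 or 3. Gsdmc4 and Gsdmc, chosen after their values were seen, had -0.16 ± 0.06 and -0.24 ± 0.09 (adjusted p = 0.215 and 0.228). The gasdermin C genes are close copies, so reads may have been split between them.

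Several enzyme genes were among the 26 that fell, gathered here after their values were seen. Cyp2w1, a cytochrome P450, had 14.2, 8.0 and 2.85 CPM in unstimulated libraries, 0.919, 0.752 and 1.83 CPM with IL-1b, 2.89, 1.77 and 1.32 CPM with IL-22 and 0.202, 0 and 0.429 CPM with both. The groups did not overlap within a stratum, but the unstimulated libraries spread widely. The term was -2.87 ± 0.47 (adjusted p = 0.0132). With IL-22 the summed counts were 3 against 29, a ratio of 0.103 (0.0201 to 0.332), and without IL-1b replicate 1 the call was lost (adjusted p = 0.0526).

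Gatm, the first enzyme of creatine synthesis (chromosome 2, 122594467 to 122611303), had 14.1, 12.6 and 15.6 CPM in unstimulated libraries and 7.72, 8.09 and 8.98 CPM with IL-1b. It had 32, 45.6 and 35.6 CPM with IL-22 and 26.6, 21.8 and 25.7 CPM with both. IL-1b went with a lower level in both strata and IL-22 with a higher one, and the terms were -0.67 ± 0.11 for IL-1b (adjusted p = 0.0106) and 1.49 ± 0.11 for IL-22. Acpp, an acid phosphatase gene (chromosome 9, 104288251 to 104337748), had 25.1, 19.8 and 22.2 CPM in unstimulated libraries, 9.74, 16.9 and 14.8 CPM with IL-1b, 39.4, 51.6 and 50.4 CPM with IL-22 and 27.6, 22.9 and 32.4 CPM with both. Again the terms had opposite signs, -0.74 ± 0.12 for IL-1b (adjusted p = 0.0154) and 1.04 ± 0.12 for IL-22.

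Mlxipl, the glucose-responsive transcription factor ChREBP, had 54, 52.9 and 44.8 CPM in unstimulated libraries, 34.9, 36.7 and 35.1 CPM with IL-1b, 31.6, 24.8 and 30.6 CPM with IL-22 and 23, 17.4 and 20.8 CPM with both. No groups compared within a stratum overlapped, and the IL-1b term was -0.51 ± 0.08 (adjusted p = 0.0109). C2cd4a, a gene of the C2 domain family, had 8.55, 8.37 and 8.91 CPM in unstimulated libraries, 4.41, 5.46 and 5.49 CPM with IL-1b, 8.46, 5.98 and 8.49 CPM with IL-22 and 4.04, 2.55 and 4.08 CPM with both. Every library with IL-1b lay below every library without it, over all 12, and the term was -0.91 ± 0.15 (adjusted p = 0.0166). Cyp2d13, a symbol with no position in the annotation used, fell by 0.37 ± 0.05 on the log2 scale (adjusted p = 0.00302), and Cyp2d22 fell by 0.59 ± 0.12 (adjusted p = 0.0397). The call of Cyp2d22 held only without IL-1b replicate 2 or both cytokines replicate 1.

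Of 45 tested genes of xenobiotic and lipid metabolism 2 fell and none rose (4.44%, against 0.565% of all genes, median -0.08). Both encode glutathione transferases, Gstm3 at -0.36 ± 0.07 and Gstm1 at -0.27 ± 0.06 (adjusted p = 0.0214 and 0.0401). The Gstm3 call was lost without unstimulated replicate 2, IL-22 replicate 3, IL-1b replicate 1 or 3 or both cytokines replicate 3, and that of Gstm1 held only without IL-22 replicate 3, IL-1b replicate 2 or both cytokines replicate 1. Gpam, which starts triglyceride synthesis, fell by 0.52 ± 0.11 (adjusted p = 0.0416) and Aldh1l2, a mitochondrial folate enzyme gene, fell by 0.49 ± 0.09 (adjusted p = 0.0294). Anpep, the brush border aminopeptidase N, fell by 1.09 ± 0.20 (adjusted p = 0.0236), from 10.5 ± 2.19 to 4.52 ± 0.587 CPM without IL-22 and from 11 ± 4.99 to 5.63 ± 0.39 CPM with it (SD, n = 3). Without IL-1b replicate 1 none of Gpam, Aldh1l2, Anpep, Gstm1 or Gstm3 was called, with adjusted p from 0.0746 to 0.148. Pappa2, a protease of insulin-like growth factor binding proteins, fell by 0.74 ± 0.13 (adjusted p = 0.0198), a call lost without both cytokines replicate 1 (adjusted p = 0.0505). Spata13, a guanine nucleotide exchange factor, fell by 0.43 ± 0.09 (adjusted p = 0.0432) and kept its call only without unstimulated replicate 3, IL-22 replicate 1 or IL-1b replicate 2.

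Of the period genes of the circadian clock 2 fell, and Per1 was not called. The clock genes were not a list fixed beforehand, so no share called is given. Per2, a repressor of the CLOCK and BMAL1 pair, had 99.6, 88.4 and 80.6 CPM in unstimulated libraries, 66.7, 76.8 and 67 CPM with IL-1b, 45.6, 60.03 and 52.8 CPM with IL-22 and 38.9, 33.9 and 34.5 CPM with both. The levels with both lay below all others, and the terms were -0.44 ± 0.08 for IL-1b (adjusted p = 0.0198) and -0.86 ± 0.08 for IL-22. Per3 had -0.38 ± 0.07 (adjusted p = 0.0214) and an IL-22 term of -0.92 ± 0.07. Cry2, a further repressor, chosen after its values were seen, had -0.34 ± 0.06 (adjusted p = 0.0166) and shares 295 exon bases with another gene model.

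Other clock genes, likewise chosen afterwards, were not called. Among them Nr1d2 had -0.05 ± 0.05, Npas2 -0.07 ± 0.09 and Ciart -0.10 ± 0.11. Tef had -0.11 ± 0.06, Bhlhe40 -0.15 ± 0.05 and Nfil3 0.16 ± 0.19 (adjusted p from 0.192 to 0.739 for these and the 3 before). Values were -0.31 ± 0.09 for Per1, -0.26 ± 0.10 for Dbp, -0.25 ± 0.07 for Nr1d1, -0.04 ± 0.07 for Cry1, -0.05 ± 0.05 for Arntl and 0.03 ± 0.05 for Clock, with adjusted p from 0.122 to 0.837. The call of Per2 was lost without unstimulated replicate 1 or 2, IL-22 replicate 3, IL-1b replicate 1 or 3 or both cytokines replicate 3, and that of Per3 without unstimulated replicate 1 or 2, IL-1b replicate 1 or 3 or both cytokines replicate 1 or 3. Without IL-1b replicate 1 the adjusted p was 0.0708 for Per2, 0.0717 for Per3 and 0.0444 for Cry2. The Cry2 call was lost without unstimulated replicate 2, IL-1b replicate 3 or both cytokines replicate 3.

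The remaining called genes outside the lists, chosen after their values were seen, mostly moved by less than 2-fold. The 20 risen ones lay between 0.21 for Tmem176b, a membrane protein gene, and 1.28 for Dock11, a guanine nucleotide exchange factor gene. Rilpl2, a regulator of cilia, had 29.2, 28.2 and 30.5 CPM in unstimulated libraries, 39.3, 37.2 and 41.7 CPM with IL-1b, 33.5, 28.6 and 29.4 CPM with IL-22 and 40.4, 37.2 and 43.5 CPM with both. All 6 libraries with IL-1b lay above all 6 without, and the term was 0.42 ± 0.06 (adjusted p = 0.00784). Slc7a11, the cystine and glutamate exchanger, rose by 0.44 ± 0.08 (adjusted p = 0.0257) and Car13, a carbonic anhydrase, by 0.25 ± 0.05 (adjusted p = 0.0374). The others were Gm39584, Wfdc18, AI987944, Nucb2, Zwint, Snrpn, Snurf, Tmem68, Rasgef1a, Phf11b, Ccdc58, Ecscr, Lyrm2, Cetn2 and Exoc6.

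The 7 fallen genes of this kind were Gm6086, 5330417C22Rik, Slc24a3, Epb41l3, Ces2g, Rcc2 and Mtss1, from -1.24 for Gm6086 to -0.22 for Mtss1. Ces2g, a carboxylesterase, had 52.4, 56 and 49.5 CPM in unstimulated libraries and 41.5, 41 and 44.6 CPM with IL-1b, then 27.2, 30.8 and 29.6 CPM with IL-22 and 23.4, 24.1 and 22.3 CPM with both. The 4 groups did not overlap and were lower in that order, and the IL-1b term was -0.32 ± 0.06 (adjusted p = 0.0216). Slc24a3, a sodium and calcium exchanger, fell by 0.44 ± 0.09 (adjusted p = 0.0406). Of these 27 genes only Rilpl2 and Gm39584 were called whichever library was left out.

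**Figure D3:**
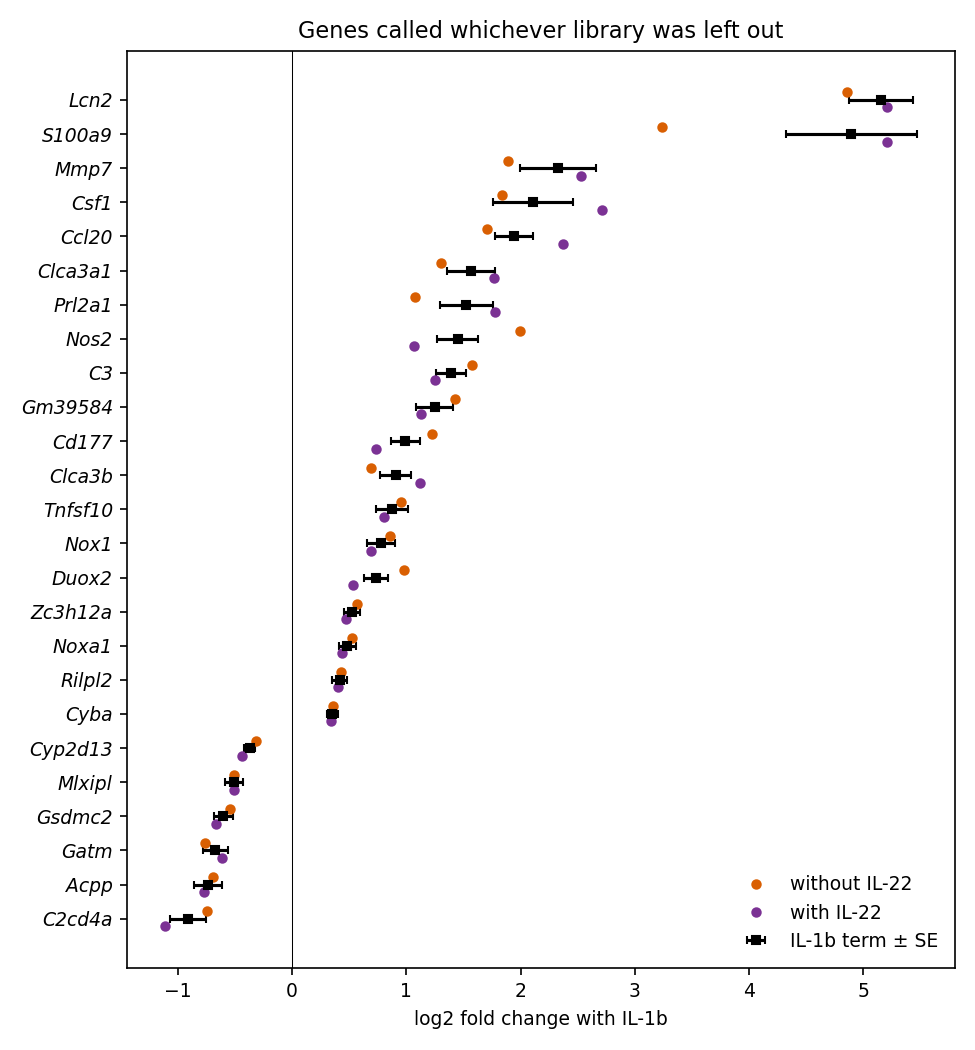
Log2 fold change of the IL-1b term ± SE (squares) for the 25 genes called whichever library was left out, with the change in cultures without IL-22 and with IL-22 (points). Lcn2 at 5.16 is the largest and Cyba at 0.35 the smallest rise, and the 6 lower genes lie between -0.91 and -0.37.

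The changes were then taken apart by IL-22. The stratum without IL-22 sets IL-1b against unstimulated cultures and the stratum with IL-22 sets both cytokines against IL-22 alone, so the 2 share no library. All 79 called genes had the same sign in both strata, and in 68 of them the groups overlapped in neither stratum. That was 44 genes higher (1.36% of all genes tested were so) and 24 lower (0.758% of all genes tested were so). The 79 genes were picked by a term fitted to these same libraries. That choice favours equal sign and little overlap, so neither is separate evidence. Over all genes tested in both strata, each stratum fitted alone, 61.6% had the same sign. In a fit with 1 mean per group, 10 genes were called without IL-22 (0.0715%), all higher, and 11 with IL-22 (0.0786%), 9 of them higher (0.0643%) and 2 lower (0.0143%). At an unadjusted p under 0.05 there were 1338 genes without IL-22 (9.57%) and 1440 with it (10.3%). Of the 79 genes, 8 were called without IL-22, 10 with IL-22 and 65 in neither stratum alone. With IL-1b replicate 1 left out there were 9 genes without IL-22 and 11 with it. The count without IL-22 was 28 when unstimulated replicate 3 was left out. The count with IL-22 was 72, 28 and 18 when IL-22 replicate 1, both cytokines replicate 1 or unstimulated replicate 3 was left out. It was 3 to 6 without any 1 of IL-22 replicate 2 or 3, IL-1b replicate 2 or both cytokines replicate 2 or 3.

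In both strata 4 genes were called. Lcn2 rose by 4.86 ± 0.63 without IL-22 and 5.20 ± 0.32 with it, Ccl20 by 1.71 ± 0.19 and 2.38 ± 0.25, C3 by 1.57 ± 0.20 and 1.25 ± 0.17, and Nos2 by 2.00 ± 0.21 and 1.07 ± 0.18. Adjusted p lay between 0.00143 and 0.00379 without IL-22 and between 2.55e-06 and 0.046 with it. Lcn2 and Ccl20 were called in both strata under all 19 other settings, left-out libraries included, and all 4 genes were called without IL-22 under each. With IL-22, C3 lost its call without IL-22 replicate 3 or both cytokines replicate 2 or 3 (adjusted p up to 0.0627). Nos2 kept that call in 10 of the 19 and lost it without IL-22 replicate 2, any library of IL-1b alone, or both cytokines replicate 2 or 3, and with DESeq2-type size factors, the replicate block or only the 6 libraries of the stratum (adjusted p up to 0.217). Genes called without IL-22 only were Cd177, Duox2, Duoxa2, Tnf, Lbp and Clca4b, and those called with IL-22 only were S100a9, Clca3a1, Clca3b, Mmp7, Prl2a1, Cyp2d13 and 9130208D14Rik. Being called in 1 stratum does not show that the strata differ.

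**Figure D4:**
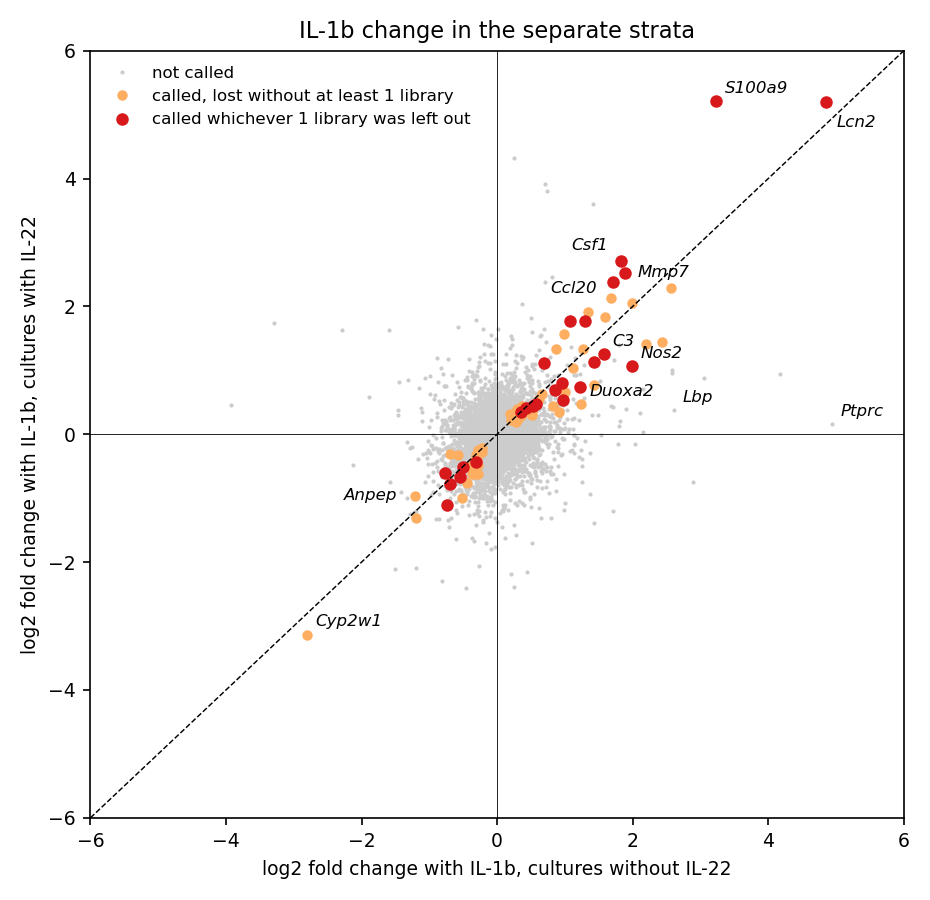
Log2 fold change with IL-1b in cultures without IL-22 (x axis) and with IL-22 (y axis) for 13987 genes, with called genes of the IL-1b term in colour and the line of equal change dashed. All 79 called genes lie in the 2 quadrants of equal sign, while Ptprc and Lbp, which were not called, lie to the right near the x axis. The called genes were picked by a term over both strata, which favours equal sign.

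The difference between strata was tested as an interaction. No gene was called by edgeR. An unadjusted p under 0.05 was found for 705 genes (5.04%). DESeq2 called 4 (0.0286%), Lbp, Adh6a, Clca4b and Sgk1, all with a negative interaction. The interaction is the change with IL-22 minus the change without it, so a negative value can be a smaller rise or a larger fall. For Clca4b the edgeR values were 0.78 without IL-22 and 0.09 with it. The lowest adjusted p of edgeR was 0.124, for Lbp, which had 1.43, 1.09 and 0.948 CPM in unstimulated libraries and 5.15, 9.97 and 6.65 CPM with IL-1b, but 32.8, 34.8 and 32.1 CPM with IL-22 and 45.8, 43.5 and 40.3 CPM with both. Its rise was 2.62 ± 0.29 without IL-22 (adjusted p = 0.00143) and its value with IL-22 0.38 ± 0.14 (adjusted p = 0.381). The interaction of Lbp was called without IL-1b replicate 1 (-2.43, adjusted p = 0.0189). Among the 79 called genes 5 had an unadjusted interaction p under 0.05 (6.33%, against 5.04% of all genes). They were Nos2, Cd177, Duox2, Duoxa2 and Tnf, with interactions of -0.93 ± 0.28, -0.49 ± 0.22, -0.45 ± 0.18, -0.77 ± 0.20 and -0.56 ± 0.20 and adjusted p of at least 0.924. Of the 53 risen genes 34 had the larger value without IL-22, and of the 26 fallen genes 6 fell further without it.

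Each stratum was also fitted alone, with only its 6 libraries, so that calls in 1 could be read in the other. Without IL-22, 11 genes were called: Ccl20, Lcn2, Duox2, Duoxa2, Lbp, Clca3b, Cd177, Nos2, Samd12, C3 and Nox1. In the stratum with IL-22 all 11 had the same sign and 10 also an unadjusted p under 0.05 (8.08% of all genes had one). With IL-22, 6 genes were called: Ccl20, Lcn2, S100a9, Saa3, Prl2a1 and C3. Without IL-22, 5 of them were tested, where all 5 had the same sign and 4 an unadjusted p under 0.05 (12.5% of all genes had one). Over 13172 genes tested in both strata 61.6% had the same sign.

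Several gene groups had no called member by edgeR. Only 0.565% of all genes were called, so lists of these sizes may hold none without differing from other genes. None of 47 tested interferon-stimulated genes was called, with a median of 0.09 over both strata, 0.16 without IL-22 and -0.08 with it. The lowest p was that of Gbp6 (1.65 ± 0.40, adjusted p = 0.10), a guanylate-binding protein gene, and of Irgm1 (0.23 ± 0.06, adjusted p = 0.105), an immunity-related GTPase gene. Of 39 tested proliferation genes none was called and 3 had positive values, with a median of -0.17. Mki67, the proliferation marker Ki-67, had -0.29 ± 0.10 and Mcm3, a helicase subunit of DNA replication, -0.39 ± 0.14 (adjusted p = 0.203 for both). Of 29 tested AP-1 and immediate early genes none was called and 1 had a positive value, with a median of -0.11. Zfp36, which destabilises inflammatory transcripts, had -0.20 ± 0.05 (adjusted p = 0.133).

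By edgeR, cell type genes of the epithelium were likewise not called: 0 of 27 tested for goblet cells (median -0.04), 0 of 19 for stem cells and Wnt (median -0.03), 0 of 23 for enteroendocrine cells (median -0.07) and 0 of 4 for tuft cells (median 0.20). With 0.565% of all genes called, the lack of calls does not set these lists apart. Muc2, the gel-forming mucin of goblet cells, had -0.14 ± 0.06 (adjusted p = 0.264). Lgr5, the stem cell receptor, was at most 4.99 CPM and had -0.89 ± 0.47 (adjusted p = 0.391). DESeq2 called 1 of the goblet cell genes, Creb3l1, and 2 of the stem cell and Wnt genes, Smoc2 and Axin2, all lower with IL-1b. Of all genes DESeq2 called 0.894%, with 0.415% lower. Smoc2, another stem cell gene, had -1.19 ± 0.32 (adjusted p = 0.128 by edgeR and 0.0474 by DESeq2), from 13.2, 10.2 and 10.4 to 2.94, 8.09 and 3.83 CPM without IL-22 and from 13.8, 4.43 and 3.4 to 2.62, 2.94 and 3.86 CPM with it. Its groups overlapped in the stratum with IL-22. Axin2, a Wnt target, had -0.67 ± 0.17 (adjusted p = 0.116 by edgeR and 0.0365 by DESeq2). With IL-22 it went from 24.2, 21.5 and 19.1 CPM to 10.1, 8.62 and 11.2 CPM without overlap, at -1.11 ± 0.20 (adjusted p = 0.0668), and was called in that stratum without unstimulated replicate 2 or 3 and by DESeq2. Without IL-22 its libraries had 15.9, 13.5 and 24.5 CPM unstimulated and 14.7, 15.6 and 14 CPM with IL-1b, with overlap. By edgeR no genes were called among 26 tested for antigen presentation (median 0.04) or 30 for protein folding in the endoplasmic reticulum (median -0.02). The same held for 24 tested for tight junctions and surface mucins (median -0.03) and 20 for hypoxia and glycolysis (median -0.04). It also held for 15 tested for heat shock and dissociation (median 0.06). DESeq2 called 1 of the 30 protein folding genes, Pdia6, against 0.894% of all genes.

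Other members of these lists with the lowest p had the following values. Creb3l1, a transcription factor of secretory cells, had -0.41 ± 0.09 (adjusted p = 0.0568 by edgeR, and called by DESeq2 at 0.00287), with 131, 114 and 134 CPM in unstimulated libraries, 90.6, 119.8 and 103 CPM with IL-1b, 83, 101 and 89.6 CPM with IL-22 and 66, 65.9 and 51.3 CPM with both. Among enteroendocrine genes Tph1, the enzyme of serotonin synthesis, had 0.37 ± 0.10 and Insm1, a transcription factor, -0.47 ± 0.13 (adjusted p = 0.126 and 0.151). The chaperone genes Pdia6 and Sdf2l1 had 0.19 ± 0.05 and 0.20 ± 0.05 (adjusted p = 0.103 and 0.106 by edgeR, and 0.0398 for Pdia6 by DESeq2).

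Il33, which encodes an alarmin cytokine of the IL-1 family, had 1.61 ± 0.51 (adjusted p = 0.179). Its levels were 1.78, 4.18 and 7.21 CPM in unstimulated libraries, 7.54, 6.96 and 6.82 CPM with IL-1b, 6.19, 4.43 and 2.26 CPM with IL-22 and 9.28, 8.04 and 50.2 CPM with both, and 1 library with both cytokines held the highest value. Cldn2, a pore-forming claudin, had -0.31 ± 0.13 and Cdh1, the E-cadherin gene, -0.09 ± 0.04 (adjusted p = 0.295 and 0.271). Vegfa, the endothelial growth factor, had -0.17 ± 0.05 and Pfkfb3, an activator of glycolysis, -0.29 ± 0.09 (adjusted p = 0.173 and 0.166). Zfp36l1, which destabilises transcripts as Zfp36 does, had -0.21 ± 0.05 (adjusted p = 0.114).

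**Figure D5:**
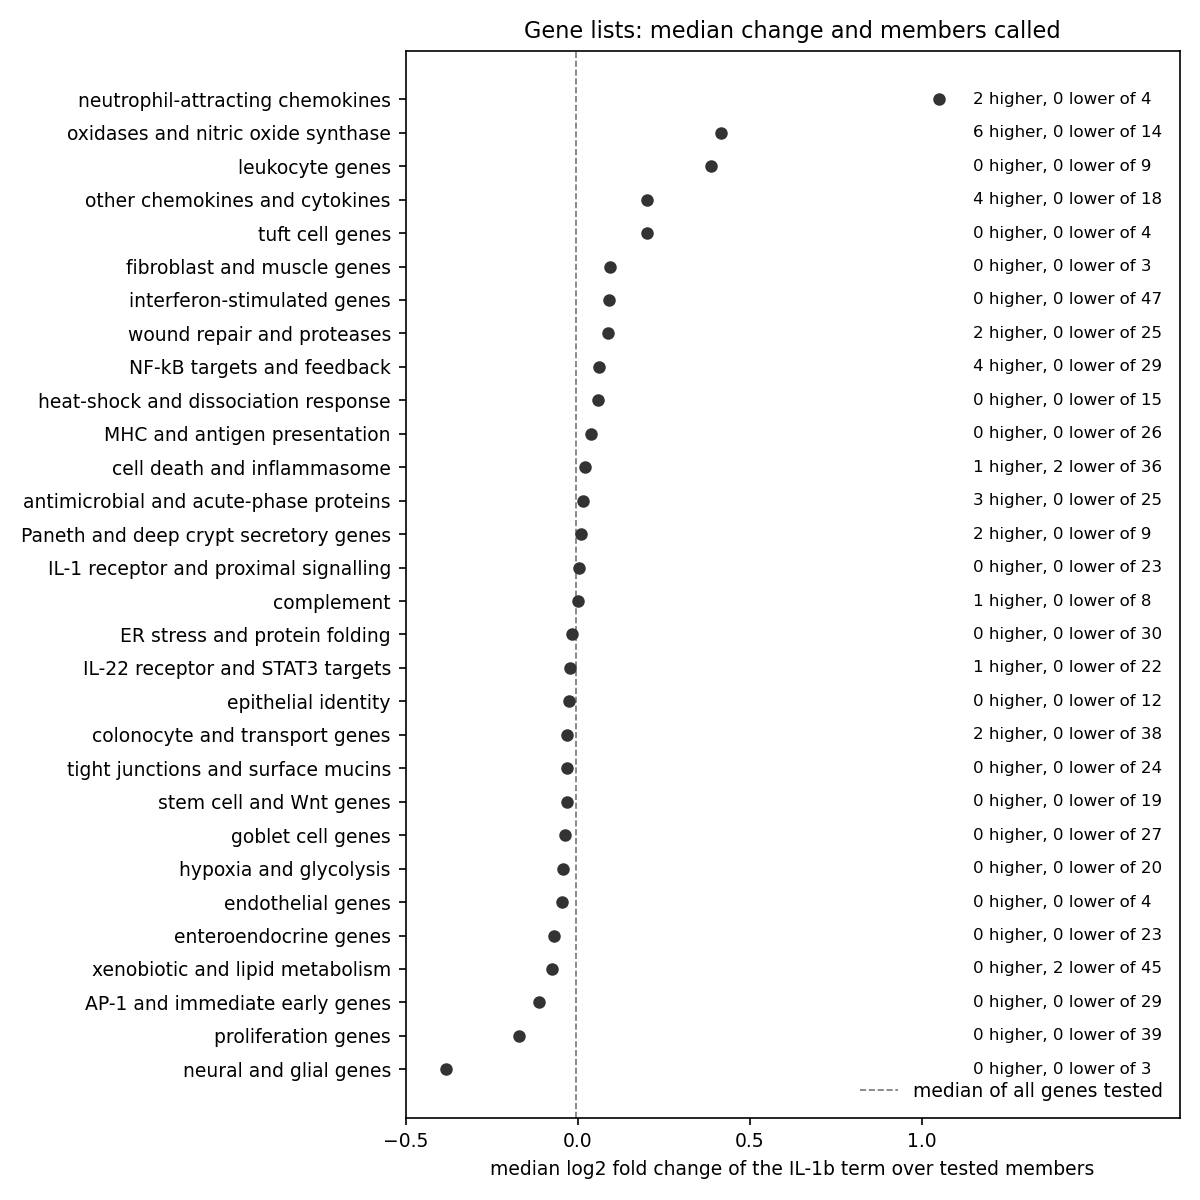
Median log2 fold change of the IL-1b term over the tested members of each gene list (points), with the number of members called at the right and the median of all genes dashed. Neutrophil-attracting chemokines (1.05) and oxidases (0.42) have the highest medians, followed by leukocyte genes (0.39, none called). Most lists lie near 0 with no called member.

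Called genes often lay near each other. Within 100 kb there were 10 pairs of called genes, 17 of the 77 with a position, and in each pair both moved in the same direction. Of the 13278 tested genes with a position 1.77% lay as near to a called gene. The pairs were the CLCA, gasdermin C, Duox2 and Duoxa2, Cxcl1 and Cxcl2, Cd177 and Ceacam10, and glutathione transferase neighbours described above, and the overlapping models C3 with Mir6978 and Snrpn with Snurf. Snrpn and Snurf, which share a transcript, had 0.26 and 0.26, and their counts cannot be told apart. In all 19 called genes share exon bases with another gene model. By abundance, 1 of 449 genes with 0.4 or more counts per exon base was called (0.223%), against 0.582% to 0.599% in the bins below. That gene was Snurf, at 1.45 counts per exon base, whose 216 exon bases are all shared with other models. Snrpn, with nearly the same counts, had 0.145. Counts of some abundant genes hardly varied: Rps29, with 693 exon bases, had 177 to 193 counts (variance over mean 0.118), so fold changes of such genes may be understated.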

How the data were processed

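Counts are whole numbers per gene symbol as deposited, and the authors used the mouse build mm10, per the submitters' processing notes. Which aligner and counter they ran, with which strand setting, and whether they removed duplicate reads is not given in the sources used here. The kit was stranded per the labels' protocols. Of 35869 symbols 11498 had no count. filterByExpr of edgeR 4.0.16 (R 4.3.3) kept 13987 and removed 21882. Libraries were scaled by TMM. The IL-1b term was tested with glmQLFit and glmQLFTest under an additive model of IL-22 and IL-1b (9 residual degrees of freedom), and strata and interaction in a fit with 1 mean per group (8 degrees of freedom). The threshold was 0.05 on p-values adjusted by Benjamini-Hochberg across every gene tested. Standard errors were derived as |log2 fold change| divided by the root of the F statistic, an approximation that is poor at few counts.

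The comparison, its members, the gene lists and the rule for named genes were chosen with earlier results of these data known. By the rule the text names, per direction, the 15 called genes that moved most (mean of 1 CPM or more, no overlap in either stratum, clone-type names passed over), up to 4 called members of each list or the 2 of lowest p, up to 6 called interaction genes in each direction, and a fixed set of cytokine response genes. Genes outside it were picked with their values in view, as the text says, and the members of the core and of the stratum calls are listed in full. Of the markers of colon epithelium 1 is not reported here. Positions are from GENCODE M21 (26762 symbols matched directly, 546 by a RefSeq synonym, 8561 not). The C/EBP motif was TTGCNNAA, and both strands were searched for each motif. In a single library 3 counts, the limit that a count of 0 allows, stand for 0.499 to 0.665 CPM. Alternatives were DESeq2-type size factors, total counts, the DESeq2 1.42.0 Wald test, other filters, a replicate block, an average over strata and leaving out each library. Replicates of 1 group differed by more than sampling noise (chi-square per degree of freedom 1.72 to 3.75), so each library was counted as 1 sample.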

Additional observations from a re-analysis of the deposited data

How the results depend on the processing

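The number of genes called for the IL-1b term was 79 with DESeq2-type size factors, 77 with total counts and 78 with a filter at 1 CPM in 6 libraries. It rose to 125 with the DESeq2 Wald test (0.894%, 67 higher and 58 lower, with 78 of the 79 genes among them) and to 298 with no filter beyond 1 count (155 higher and 143 lower, with all 79). In both the share of higher genes fell from 67.1% to 53.6% and 52%. Leaving out each library gave 35 to 95 genes, 24 to 68 higher and 9 to 36 lower. Without IL-22 there were 32 genes with DESeq2, 212 with no filter and 9 to 28 with 1 library left out. With IL-22 there were 87 with DESeq2, 336 with no filter, 6 with only the 6 libraries of the stratum, 7 with the replicate block and 3 to 72 with 1 library left out. For the interaction DESeq2 called 4, no filter gave 50, and leaving out 1 library gave 0 to 1. The cause was not tested. Same-numbered libraries were not treated as pairs, since 18 correlations lay between -0.188 and 0.179 and 1 was over 0.1. With the replicate block 56 genes were called, 36 higher and 20 lower, 54 of them among the 79, with 8 without IL-22. An average over strata, from the fit with 1 mean per group, called 83 genes. Of these 50 were higher and 33 lower, and 73 were among the 79. Fut2, not called, changed sign to -0.00529 without unstimulated replicate 1 and to -0.00163 without IL-22 replicate 3 (range with 1 library left out -0.00529 to 0.0298). Socs3, not called, changed sign to 0.0352 without unstimulated replicate 1 (range -0.0843 to 0.0352). Of the 25 genes called whichever library was left out, 24 were called in all 7 other settings, and S100a9 was not tested at 1 CPM in 6 libraries. With 3 libraries per group, genes of a few CPM are known only within wide error.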
